A study of Mus musculus with 16 samples.

Results

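The macrophage genes described here are Csf1r, Cd68, Lyz2, Mrc1, Cd163, Fcgr1, Cd14, C1qa, C1qb and C1qc, 10 of the 23282 rows of the count tables. They were picked by symbol, with earlier results of these data known, and all 10 were among the 14854 rows that passed the filter on low counts. RNA came from the skin of wild-type male C57BL/6N mice, with 4 libraries in each of 4 groups. Cont mice ate normal chow. LowAhR mice ate for 12 weeks a diet poor in ligands of the aryl hydrocarbon receptor (AhR), a transcription factor that senses plant, microbial and environmental compounds, and were kept on paper bedding free of such ligands, so that bedding and diet cannot be told apart. LowAhR+AD mice ate the same diet and, after 2 weeks of it, had 1% 2,4-dinitrochlorobenzene (DNCB) put on the dorsal skin 2 times a week for 10 weeks, a hapten treatment used as a model of atopic dermatitis (AD). LowAhR+AD+BJ mice were treated in the same way and were also gavaged with the herbal extract Bojungikgi-tang (BJIKT) at 1 g/kg per day. The mice arrived at 3 weeks of age. No group had DNCB on normal chow or BJIKT without DNCB, and a vehicle for the Cont and LowAhR mice is not named in the sources used here. Libraries were made from whole skin of mice drawn at random from each group. The p-values from edgeR are set against the spread between skin samples within groups, which all 4 groups share as 1 estimate.

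Macrophages take up and digest debris, microbes and dying cells, and in the dermis they lie around vessels and between collagen fibres. They depend on signals through the CSF1 receptor, carry scavenger, mannose and Fc receptors that bind sugars, haemoglobin complexes and antibody, and are the main source of C1q, the first recognition protein of the classical complement pathway. In inflamed skin, monocytes enter from the blood and become macrophages beside those that already live there. Lyz2, Cd68, Cd14 and Fcgr1 are also used by monocytes, and Lyz2 by neutrophils, whereas C1q, Cd163 and Mrc1 mark tissue macrophages more closely.

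Between 7080508 and 13467477 reads were counted per library, with higher totals in both DNCB groups than in the Cont and LowAhR groups. At these totals, a count of 0 allows up to 0.229 to 0.406 CPM (counts per 1000000 of the TMM-scaled library size, the level used throughout), a limit of counting error only. Every member was above that limit in every library, with the exception of Lyz2 in LowAhR+AD replicate 1. Beyond the members, Adgre1, which encodes the macrophage antigen F4/80, was present in every library at 10.5 to 58.8 CPM, whereas Mertk, an efferocytosis receptor, had at most 1.54 CPM and was too low to be tested.

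In 2 libraries nearly all members were low, and in whole skin, fewer macrophages and less RNA per macrophage cannot be told apart. LowAhR+AD replicate 1 was the lowest of its group in 10 of the 10 members, with a summed level of 237 CPM against 1030 to 1697 CPM in the other 3 libraries of the group. Genes with an expected 20 to 40 counts, judged by the group's other replicates, were missing altogether in 37.4% of cases in that library, and in at most 13.7% elsewhere. Cont replicate 1 was the lowest of its group in 9 members and the highest in Fcgr1, and its summed level was 551 CPM against 1208 to 1294 CPM. Both libraries were also the lowest of their groups in some lists of genes that are not specific to macrophages, though not in all lists. Summed genes for C1 partners, targets and C1q-binding proteins were at 843 CPM in Cont replicate 1 (1642 to 1778 CPM in the rest of the group). They were at 559 CPM in LowAhR+AD replicate 1 (1485 to 1789 CPM in the rest). LowAhR+AD+BJ replicate 1 was the highest of its group in 9 members. The values below are therefore given by library, and counts of calls are also given without Cont replicate 1 and LowAhR+AD replicate 1. These 2 libraries were chosen after the levels of the members were seen. The fits without them are therefore a description and no separate support for the change of a member.

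**Figure D1:**
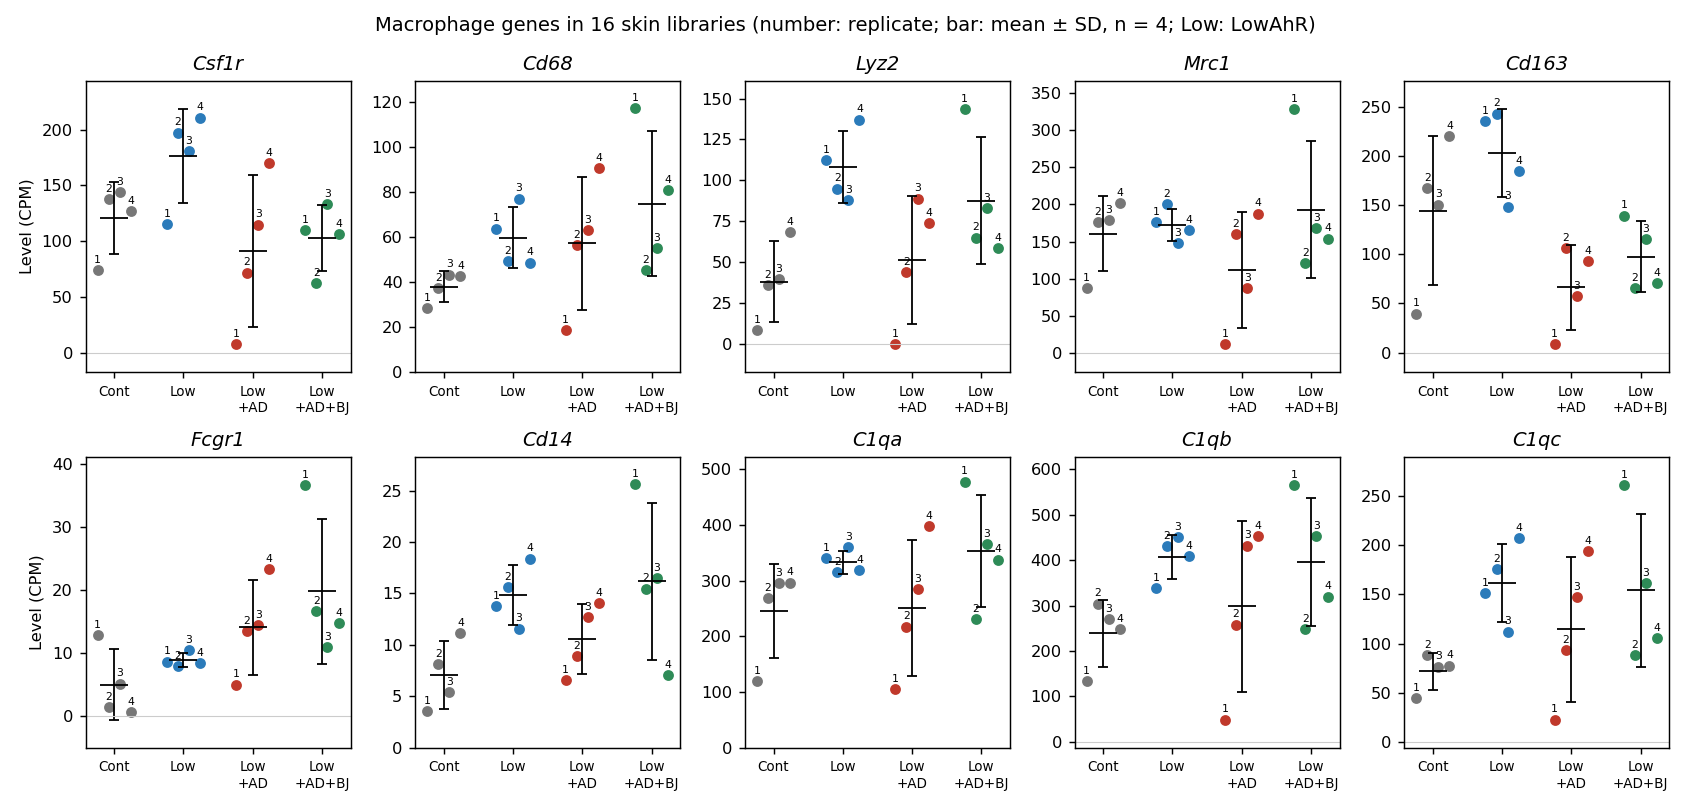
Level of each of the 10 macrophage genes (CPM, linear axis) in each library, with the replicate number above each point and a bar at the group mean ± SD (n = 4). LowAhR+AD replicate 1 is the lowest red point in every panel, Cont replicate 1 is the lowest grey point in every panel but Fcgr1, and the LowAhR points are all above the Cont points in 6 of 10 panels (this order holds for 5.68% of all tested rows).

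Csf1r encodes the receptor for CSF1 and IL-34, on whose signal macrophages depend for survival. Its level was 73.9, 138, 144 and 127 CPM in Cont replicates 1 to 4 and 116, 197, 181 and 211 CPM in the LowAhR libraries. It was 7.94, 71.9, 115 and 169.9 CPM in the LowAhR+AD and 110.2, 62.6, 133 and 106 CPM in the LowAhR+AD+BJ libraries. The LowAhR group was the highest on average and overlapped with every other group. Compared to the LowAhR group, the log2 fold change of Csf1r was -0.95 in the LowAhR+AD group (SE 0.52, adjusted p = 0.247 from edgeR) and -0.77 in the LowAhR+AD+BJ group (SE 0.52, adjusted p = 0.43).

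Cd68 encodes a heavily glycosylated protein of the late endosome and lysosome that is used as a general macrophage stain. Its level was 28.5, 37.2, 43.3 and 42.7 CPM in the Cont and 63.7, 49.4, 77.0 and 48.6 CPM in the LowAhR libraries, with each LowAhR library above each Cont library (5.68% of all rows). It was 18.5, 56.4, 63.0 and 90.5 CPM in the LowAhR+AD and 117, 45.2, 55.2 and 80.9 CPM in the LowAhR+AD+BJ libraries. The last of these groups also lay above all Cont libraries, whereas the LowAhR+AD group spread from below the Cont group to above the LowAhR group. The log2 fold change of Cd68 in LowAhR+AD+BJ against Cont was 0.98 (SE 0.37), and its adjusted p of 0.0729 from edgeR did not pass the threshold of 0.05.

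Lyz2 encodes the lysozyme of myeloid cells, an enzyme that cuts bacterial cell walls. Its level was 8.34, 36.0, 39.6 and 68.5 CPM in the Cont and 112, 94.97, 87.7 and 137 CPM in the LowAhR libraries, again without overlap (5.68% of all rows). It was 0, 43.7, 88.8 and 73.7 CPM in the LowAhR+AD and 143, 65.0, 83.1 and 58.5 CPM in the LowAhR+AD+BJ libraries. In LowAhR+AD replicate 1 no read was counted on Lyz2, so its level there was at most 0.229 CPM. The log2 fold change of LowAhR against Cont was 1.502 with an SE of 0.85 (adjusted p = 0.463 from edgeR), the largest estimate and the widest SE of any member in that comparison. Lyz2 has a neighbour, Lyz1, of 96.9% identity over the last 300 bases of the transcripts, and 13.3% of its 75-base windows there were identical to a window of Lyz1, compared with 0% for the other 9 members. Lyz1 was counted at 19.3 to 72.4 CPM in the Cont and 1.91 to 28.6 CPM in the LowAhR+AD libraries, and how reads shared by both rows were assigned is not given in the sources used here, so that the levels of Lyz2 are uncertain by that part. Neutrophils also make Lyz2, and their summed markers were at 8.47 to 15.7 CPM in the Cont and 16.4 to 24.3 CPM in the LowAhR libraries, a difference whose part in Lyz2 was not tested.

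C1qa, C1qb and C1qc encode the chains of C1q, 3 different polypeptides that assemble into a bouquet-shaped molecule that binds antibody complexes and dying cells. The genes lie side by side on the minus strand of chromosome 4 (GRCm38, the build named as mm10 in the submitters' processing notes), in the order C1qb (136880126 to 136886200), C1qc (136889801 to 136892936) and C1qa (136895916 to 136898844), with gaps of 3600 and 2979 bases. The windows around the RefSeq starts of C1qb and C1qc (GRCm38.p6) are shown because these chains had the highest correlation with their joint mean over the 16 libraries. C1qb is chr4:136886151-136886450 and C1qc is chr4:136892865-136893164, both on the minus strand and written 5′ to 3′, with the letters of a PU.1 core (GAGGAA, or TTCCTC when it is on the other strand) in capitals.

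C1qb: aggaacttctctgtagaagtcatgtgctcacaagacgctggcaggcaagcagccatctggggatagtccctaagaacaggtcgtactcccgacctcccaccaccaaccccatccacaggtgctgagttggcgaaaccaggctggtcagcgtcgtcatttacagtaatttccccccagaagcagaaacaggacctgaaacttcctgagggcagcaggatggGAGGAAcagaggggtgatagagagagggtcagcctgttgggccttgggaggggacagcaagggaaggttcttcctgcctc

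C1qc: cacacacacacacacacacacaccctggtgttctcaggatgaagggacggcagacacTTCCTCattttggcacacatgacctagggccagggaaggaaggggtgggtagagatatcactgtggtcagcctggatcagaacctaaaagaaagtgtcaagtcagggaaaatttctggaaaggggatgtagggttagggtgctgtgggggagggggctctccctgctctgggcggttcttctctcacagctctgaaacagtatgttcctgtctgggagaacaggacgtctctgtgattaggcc

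PU.1 is a transcription factor of the macrophage lineage. Of the 10 members, 7 were in the table of start windows, which has no entry for C1qa, Csf1r or Cd14. Searched on both strands, GAGGAA was present in 5 of these 7 and in 28.3% of all 32851 windows. No matches overlapped each other in the windows of these members. In C1qb the core began 30 bases before the start, and in C1qc it began 193 bases before it. These are matches of letters, and binding was not measured.

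C1qa was at 119.5, 268, 295 and 296 CPM in the Cont and 340.2, 315, 359.6 and 319 CPM in the LowAhR libraries. C1qb was at 134, 304, 269 and 248 CPM and 339, 431, 451 and 408 CPM in the same groups. C1qc was at 44.5, 88.6, 76.7 and 77.9 CPM and 152, 175, 112 and 207 CPM. In each of the 3 chains, every LowAhR library was above every Cont library, an order that held for 5.68% of all rows. The log2 fold change in LowAhR against Cont was 0.45 for C1qa (SE 0.34), 0.77 for C1qb (SE 0.45) and 1.17 for C1qc (SE 0.46), with adjusted p of 0.631, 0.488 and 0.249 from edgeR. The exact 2-sided permutation p of each chain was 0.0286, the smallest that 4 libraries against 4 can give, and groups without overlap always give it. The 3 chains followed each other from library to library (r within groups 0.88 to 0.95) and are not 3 separate observations.

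The DNCB groups overlapped with both the Cont and the LowAhR group in each chain. C1qa was at 106, 218, 284 and 397 CPM in the LowAhR+AD and 478, 231, 366 and 338 CPM in the LowAhR+AD+BJ libraries. C1qb was at 48.7, 258, 432 and 454 CPM and 566, 248, 453 and 319.9 CPM. C1qc was at 23.1, 93.6, 147 and 194 CPM and 261, 88.6, 161 and 106 CPM. The LowAhR+AD+BJ libraries reached from below to above the LowAhR range in each chain, and the LowAhR+AD libraries did so in C1qa and C1qb. The log2 fold changes between LowAhR+AD+BJ and LowAhR were 0.084, -0.038 and -0.067 (SE 0.34, 0.45 and 0.45).

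The relative shares of the chains were similar in most libraries. C1qa took a median of 39.6% of the counts on the 3 chains, C1qb 43.7% and C1qc 16.02%. In 15 of the 16 libraries the share of C1qa was between 32.9% and 47.6%. The exception was LowAhR+AD replicate 1, where C1qa took 59.6% (Wilson 95% interval 57.57 to 61.56%), C1qb 27.4% and C1qc 13.02%. That is the library with the missing counts described above. The share of C1qc was 13.2 ± 1.31% (SD, n = 4) in the Cont group and 17.9 ± 4.18% in the LowAhR group, with LowAhR replicate 3 (12.2%) inside the Cont range.

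**Figure D2:**
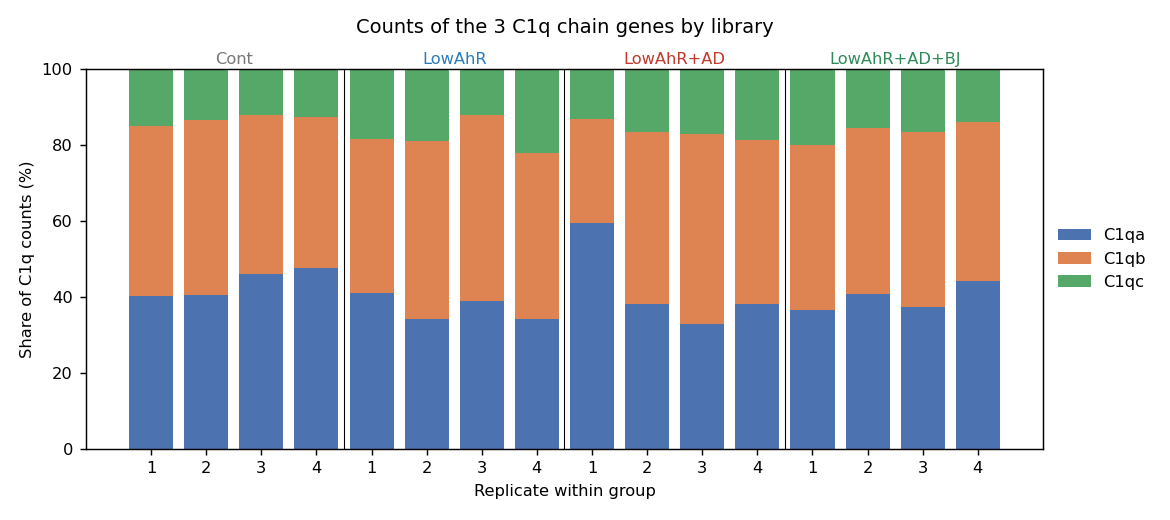
Share of the counts on C1qa, C1qb and C1qc (%, stacked to 100%) that each chain took in each of the 16 libraries, by group and replicate. C1qa took 59.6% in LowAhR+AD replicate 1 and 32.9% to 47.6% in the other 15 libraries.

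Cd163 and Fcgr1 are receptors of the macrophage surface. Cd163 encodes the scavenger receptor by which macrophages take up haptoglobin-haemoglobin complexes, and Fcgr1 encodes the high-affinity receptor for IgG, a gene that interferon is known to induce. Their start windows are shown because these were the members with the largest log2 fold changes downward and upward between a DNCB group and a group without DNCB (RefSeq, GRCm38.p6). Cd163 is chr6:124304401-124304700 on the plus strand and holds no such match. Fcgr1 is chr3:96293920-96294219 on the minus strand, with a PU.1 core beginning 55 bases before the start, in capitals.

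Cd163: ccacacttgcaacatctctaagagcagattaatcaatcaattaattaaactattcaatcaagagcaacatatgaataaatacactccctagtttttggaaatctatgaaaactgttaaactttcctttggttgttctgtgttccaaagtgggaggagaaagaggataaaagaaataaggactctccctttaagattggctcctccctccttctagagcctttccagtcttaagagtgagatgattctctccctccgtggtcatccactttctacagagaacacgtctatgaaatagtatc

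Fcgr1: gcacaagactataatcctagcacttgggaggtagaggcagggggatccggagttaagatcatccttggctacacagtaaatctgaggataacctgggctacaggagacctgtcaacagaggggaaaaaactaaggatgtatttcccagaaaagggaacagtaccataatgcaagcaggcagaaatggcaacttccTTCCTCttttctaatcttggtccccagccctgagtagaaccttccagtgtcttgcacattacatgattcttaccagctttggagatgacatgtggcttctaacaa

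Cd163 was at 39.7, 167, 150.4 and 220.0 CPM in the Cont and 235, 243, 148 and 185 CPM in the LowAhR libraries. It was at 8.85, 106, 57.1 and 92.6 CPM in the LowAhR+AD and 139, 65.6, 115 and 70.3 CPM in the LowAhR+AD+BJ libraries. Every library with DNCB was below every LowAhR library, with or without BJIKT. Of all rows, 9.85% had this order in LowAhR+AD and 8.19% in LowAhR+AD+BJ, both set against the same LowAhR libraries. The log2 fold change of LowAhR+AD against LowAhR was -1.62 (SE 0.55), from 203 ± 44.5 to 66.2 ± 43.5 CPM (mean ± SD, n = 4), with an adjusted p of 0.0597 from edgeR that just missed the threshold. DESeq2 gave -1.65 with an adjusted p of 0.0117, limma voom -2.09 with 0.0283, and the fit without the 2 low libraries -1.25 with 0.0132. On 1 set of simulated counts, 17.6% of the 91 genes called by DESeq2 were false calls, against 4.44% of 45 for limma voom and 1.96% of 51 for edgeR. These counts were drawn with the spread estimated by edgeR, which may favour edgeR, so that the rates do not rank the methods. Over the 8 fits of edgeR that each left out 1 library, the adjusted p of Cd163 was 0.0533 to 0.126. For LowAhR+AD+BJ against LowAhR, the log2 fold change of Cd163 was -1.05 (SE 0.54, adjusted p = 0.265 from edgeR), and -1.06 (adjusted p = 0.0182) without those 2 libraries.

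Fcgr1 was at 12.8, 1.42, 5.18 and 0.718 CPM in the Cont and 8.66, 7.94, 10.5 and 8.47 CPM in the LowAhR libraries. It was at 5.04, 13.5, 14.5 and 23.4 CPM in the LowAhR+AD and 36.7, 16.7, 10.97 and 14.8 CPM in the LowAhR+AD+BJ libraries. Cont replicates 2 and 4 held only 11 and 6 reads of Fcgr1, whereas Cont replicate 1 held 100. Fcgr1 was higher in LowAhR+AD+BJ than in Cont, by a log2 fold change of 1.97 (SE 0.67, 19.8 ± 11.51 against 5.04 ± 5.56 CPM, SD, n = 4, adjusted p = 0.0449 from edgeR). It was 1 of 10 members called in this comparison, against 19.9% of all rows, and in the other 5 comparisons of the same model edgeR called 0 members. Over the fits that left out 1 library its adjusted p was 0.00686 to 0.167. It was lowest without Cont replicate 1 (log2 fold change 3.01) and highest without LowAhR+AD+BJ replicate 1 (1.49). The call was also lost without Cont replicate 2, 3 or 4 (adjusted p = 0.118, 0.0874 and 0.0924) and without LowAhR+AD+BJ replicate 2 or 4 (0.0701 and 0.0607), and edgeR kept it without LowAhR+AD+BJ replicate 3 (0.0368). Without Cont replicate 4 or LowAhR+AD+BJ replicate 4, edgeR called Cd14 in place of Fcgr1. The exact permutation p was 0.0571 (2-sided). In the same comparison 12 of 12 hair follicle markers were called higher, with summed levels of 26.2 to 951 CPM in the Cont and 5984 to 16949 CPM in the LowAhR+AD+BJ libraries. All 7 tested neutrophil markers were above 0 and 4 were called (8.47 to 15.7 CPM and 24.04 to 94.5 CPM). All 8 fibroblast markers were below 0 and 4 were called (28570.0 to 71130.3 CPM and 11292 to 20604 CPM). The part of these markers in the level of Fcgr1 was not tested. All 4 LowAhR+AD+BJ libraries were also above all 4 LowAhR libraries in Fcgr1, as in 8.91% of all rows (log2 fold change 1.15, SE 0.65, adjusted p = 0.32 from edgeR).

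On the log2 scale, Cd163 exceeded Fcgr1 by 5.25 ± 2.74 in the Cont group (SD, n = 4) and by 4.46 ± 0.49 in the LowAhR group. The difference was 1.92 ± 0.89 in the LowAhR+AD group and 2.37 ± 0.68 in the LowAhR+AD+BJ group. These genes were paired for their opposite fold changes, so that the difference is a description of the same values. Cont replicate 1, at 1.61, was the lowest of its group. Relative to Cd68 in the same library, Fcgr1 had a log2 difference of -2.70 ± 0.18 in the LowAhR and -1.98 ± 0.12 in the LowAhR+AD group (SD, n = 4), but -3.56 ± 1.92 in the Cont group, whose libraries (-5.54 to -1.14) spanned both. Relative to Cd68, Cd163 had 1.70 ± 0.85 in the Cont, 1.76 ± 0.57 in the LowAhR and -0.060 ± 0.80 in the LowAhR+AD group. The same difference went from 1.55 ± 0.60 in the LowAhR to 0.23 ± 0.99 in the LowAhR+AD group for Csf1r, and from 1.55 ± 0.46 to 0.61 ± 0.89 for Mrc1.

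**Figure D3:**
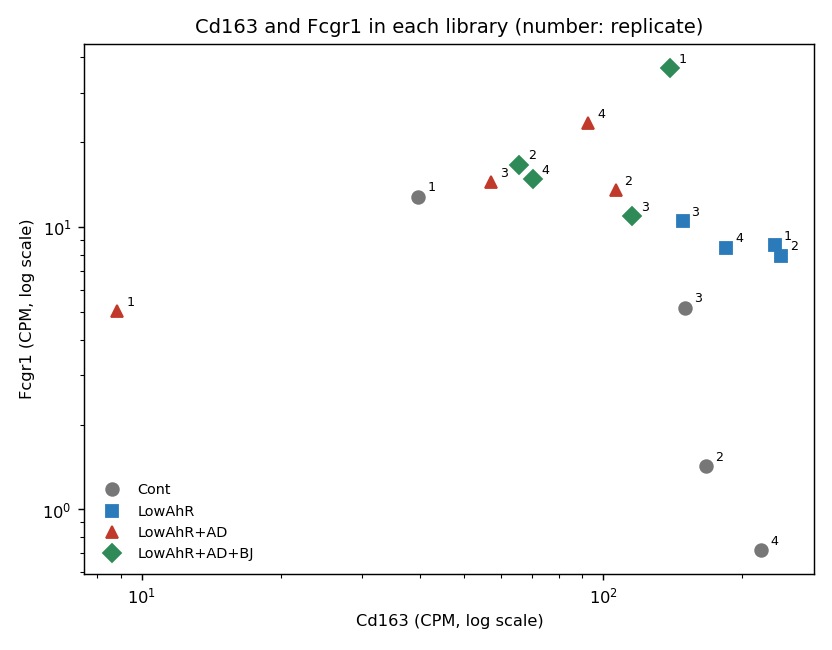
Level of Cd163 against that of Fcgr1 (both CPM, log axes) in the 16 libraries, with the replicate number beside each point and a symbol for each group. The LowAhR squares lie at 148 to 243 CPM of Cd163, to the right of all DNCB libraries, and Cont replicates 2 and 4 lie lowest in Fcgr1, at 1.42 and 0.718 CPM.

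Mrc1 encodes the mannose receptor, which clears glycoproteins and collagen fragments. Its level was 87.0 to 201 CPM in the Cont, 148 to 200.4 CPM in the LowAhR, 12.4 to 188 CPM in the LowAhR+AD and 121 to 328 CPM in the LowAhR+AD+BJ libraries. The groups overlapped in every comparison, and the log2 fold change of LowAhR against Cont was 0.10 (SE 0.51), the smallest of any member, and -0.11 without Cont replicate 1. Cd14 encodes a co-receptor that passes bacterial lipopolysaccharide to the TLR4 complex. It was at 3.59, 8.14, 5.43 and 11.1 CPM in the Cont and 13.8, 15.6, 11.6 and 18.4 CPM in the LowAhR libraries, without overlap (5.68% of all rows), and at 6.56 to 14.1 CPM and 7.06 to 25.6 CPM in the LowAhR+AD and LowAhR+AD+BJ libraries. The log2 fold change of Cd14 was 1.07 in LowAhR against Cont (SE 0.42, adjusted p = 0.255 from edgeR) and 1.19 in LowAhR+AD+BJ against Cont (SE 0.42, adjusted p = 0.056).

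To ask how the low AhR ligand diet with its bedding, in the absence of DNCB, was related to these genes, LowAhR was compared with Cont. All 10 members had a log2 fold change above 0, with a median of 0.71, while 51.6% of all tested rows were above 0 and their median was 0.026. In 6 of the 10 (Cd68, Lyz2, Cd14, C1qa, C1qb and C1qc) each LowAhR library was above each Cont library, against 5.68% of all rows. Of the members, edgeR called 0, as did DESeq2 and limma voom, and of all rows edgeR called 0%, DESeq2 491 rows and limma voom 0. At an unadjusted p under 0.05 there were 2 members (Cd14 and C1qc) and 13.7% of all rows. Without Cont replicate 1 and LowAhR+AD replicate 1, 9 of the 10 members were above 0 and the median was 0.55, with edgeR calling 0 members and 0.525% of all rows. In a fit of the 8 libraries of this comparison alone, edgeR called C1qc (1.16, adjusted p = 0.0374). The members follow each other from library to library, as given further on, and do not count as 10 separate observations. Summed adipocyte markers had the same order, at 3345 to 6678 CPM in the Cont and 9026 to 13516 CPM in the LowAhR libraries, and their part in the values of the members was not tested. Of 15 tested genes in a list of other macrophage genes, 12 were above 0 and 1, Tyrobp, had each LowAhR library above each Cont library (5.68% of all rows), at 23.1 to 58.3 CPM in the Cont and 92.1 to 136 CPM in the LowAhR libraries (log2 fold change 1.37, SE 0.50, adjusted p = 0.212 from edgeR).

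To ask how DNCB changed the skin of mice on this diet, LowAhR+AD was compared with LowAhR. Of the 10 members, 9 had a log2 fold change below 0, with a median of -0.49 beside 0.038 over all rows, of which 52% were above 0, and Fcgr1 was the one above 0 (0.66, SE 0.64). The fit in edgeR called 0 of the 10 against 12.6% of all rows, whereas DESeq2 and limma voom each called 1, Cd163. The shares of all rows called by DESeq2 and limma voom are not given here, so that their call cannot be set against 12.6%. Cd163 was also the only member with an unadjusted p under 0.05 (28.1% of all rows) and the only one whose groups did not overlap (9.85% of all rows were lower without overlap). Without the 2 low libraries, edgeR called Cd163 alone, 1 of the 10 members against 12% of all rows. In that fit 8 members were below 0 and the median was -0.21. The log2 fold change of Cd68, the general marker, was -0.064 (SE 0.37) with all libraries and 0.23 without those 2.

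Compared to the Cont group, 7 members had a log2 fold change above 0 in the LowAhR+AD group (52% of all rows), or 6 without normalization factors, where C1qa was at -0.021, and 4 in limma voom, where Lyz2 (-1.65), C1qa (-0.029) and C1qb (-0.037) were below 0. Fcgr1 had the largest (1.48, SE 0.66, adjusted p = 0.119 from edgeR) and Cd163 the lowest (-1.12, SE 0.54, adjusted p = 0.15). Of the 10 members 0 were called by edgeR, DESeq2 or limma voom, against 21.8% of all rows in edgeR, and 1 (Fcgr1) had an unadjusted p under 0.05, as had 34.1% of all rows. Without the 2 low libraries, edgeR called Fcgr1 (2.80, adjusted p = 0.00393) and Cd163 (-1.08, adjusted p = 0.0223), in opposite directions. In that fit 20.5% of all rows were called. Both libraries were left out for their levels of the members. Cont replicate 1 was the highest Cont library in Fcgr1, so that leaving it out raises the fold change of Fcgr1 by itself. Leaving out Cont replicate 1 alone gave a call of Fcgr1 (2.53, adjusted p = 0.0141), and leaving out LowAhR+AD replicate 1 alone gave calls of Cd68 (0.87, adjusted p = 0.0405) and C1qc (0.99, adjusted p = 0.0446).

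To examine the effect of BJIKT, LowAhR+AD+BJ was compared with LowAhR+AD. The log2 fold changes of all 10 members were above 0, from 0.18 for Csf1r to 0.79 for Mrc1, with a median of 0.49 beside -0.00024 over all rows, of which 50% were above 0. Their SEs were 0.34 to 0.83, and the groups overlapped in every member (5.08% of all rows did not overlap). Of the 10 members 0 were called by edgeR, DESeq2 or limma voom, 0 had an unadjusted p under 0.05 (9.46% of all rows), and of all rows edgeR called 0%, DESeq2 17 rows and limma voom 0. Without the 2 low libraries the median was 0.20 and Csf1r had a log2 fold change of -0.21. A difference in the members with BJIKT was not detectable with these libraries. On simulated counts of LowAhR+AD against LowAhR, edgeR recovered only 4% of true 2-fold and 46% of true 4-fold changes. The simulated spread was that of all libraries, the 2 low ones included. The comparison with BJIKT was not simulated, so that these shares do not tell what it could detect.

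Between LowAhR+AD+BJ and LowAhR, 5 members had log2 fold changes above 0 (50.4% of all rows) and 5 below. Groups without overlap were seen in Fcgr1 (higher) and Cd163 (lower), compared with 8.91% and 8.19% of all rows. Of the members 0 were called by edgeR, DESeq2 or limma voom and 0 had an unadjusted p under 0.05 (22.2% of all rows), while edgeR called 6.77% of all rows. Between LowAhR+AD+BJ and Cont, 8 members were above 0 (51.3% of all rows), and edgeR called 1 of the 10 members, Fcgr1, and 19.9% of all rows. Of the other members, Cd68, Cd14 and C1qc had unadjusted p under 0.05, as had 32.1% of all rows. Without the 2 low libraries edgeR called Fcgr1 (3.01, adjusted p = 0.00193), Cd68 (0.85, adjusted p = 0.04997) and, downward, Cd163 (-0.89, adjusted p = 0.036). In that fit 21.8% of all rows were called. The comparisons with one group in common share its libraries, and each is given with its own values.

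**Figure D4:**
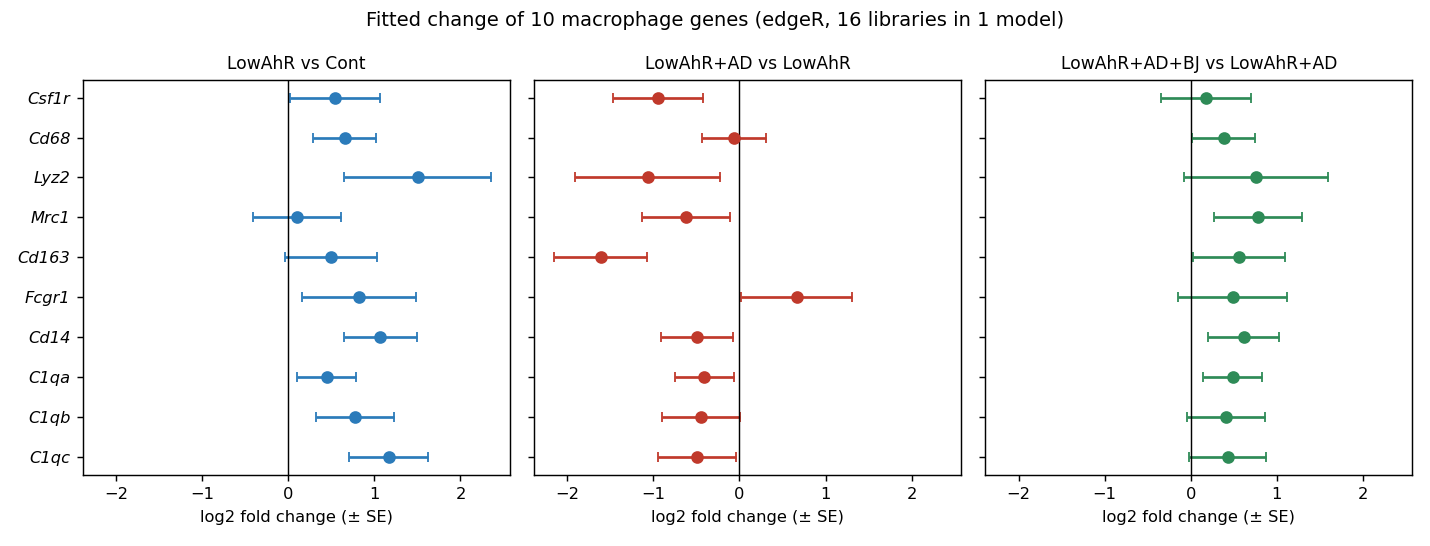
Fitted log2 fold change (± SE) of each member for the diet and bedding (LowAhR over Cont, left), DNCB (LowAhR+AD over LowAhR, middle) and BJIKT (LowAhR+AD+BJ over LowAhR+AD, right). All 10 points are above 0 on the left and on the right, and Cd163 is the lowest point in the middle, at -1.62.

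**Figure D5:**
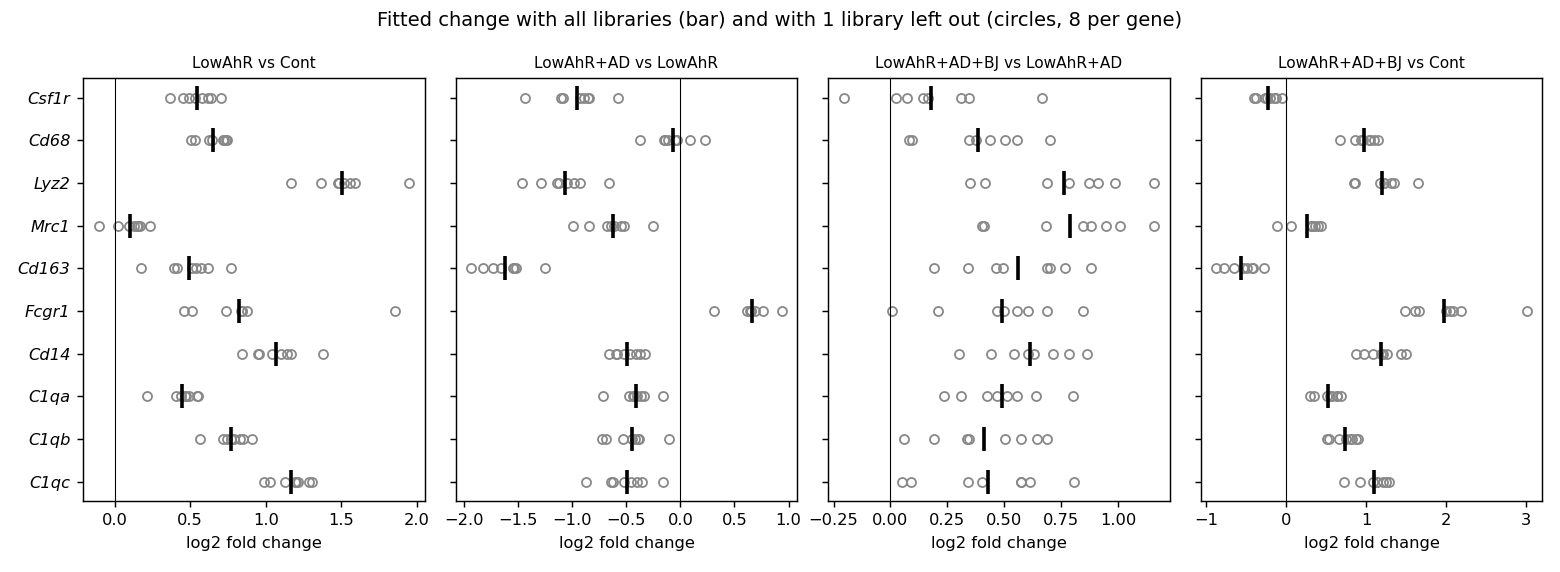
Fitted log2 fold change of each member with all libraries (bar) and with 1 library of the compared groups left out (8 circles), in 4 comparisons, each with its own scale. Cd163 in LowAhR+AD against LowAhR stays between -1.93 and -1.25, and Fcgr1 in LowAhR+AD+BJ against Cont reaches from 1.49 to 3.01.

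Over the 16 libraries, the levels of the members were described by their correlations. The log2 levels of 45 pairs of members had a median Pearson r of 0.83 within groups, and 43 were above 0. Without the 2 low libraries the median was 0.43 and 43 of the 45 were above 0. With the joint C1q level, the mean of the standardised log2 levels of the 3 chains, Lyz2 had r = 0.92, Cd68 0.88, Mrc1 0.84, Csf1r 0.83, Cd163 0.76, Cd14 0.74 and Fcgr1 0.32. These values describe 16 points, in which all genes share the depth and scaling of a library and in which LowAhR+AD replicate 1 and Cont replicate 1 are low in nearly all members. Among the 9379 non-members with a mean of at least 10 CPM, the 10 with the highest r were Tyrobp (0.95), Ccl8, Adgre1, Rarres2, Fth1, Apip, Fcer1g, Lrrc61, Clec4a2 and Itgb2 (0.92). Tyrobp and Fcer1g encode adaptors that carry the signals of myeloid receptors, Ccl8 is a chemokine, Fth1 is the heavy chain of ferritin and Itgb2 is the beta chain of leukocyte integrins.

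Around the CSF1 receptor and the factors of the lineage, Cebpb, which encodes a transcription factor of myeloid cells and keratinocytes, was at 66.7, 57.2, 41.4 and 49.0 CPM in the LowAhR and 206, 82.1, 67.2 and 84.6 CPM in the LowAhR+AD libraries. It rose by 1.04 on the log2 scale (SE 0.32, adjusted p = 0.0432 from edgeR). The groups did not overlap, but LowAhR+AD replicate 1 was far above the others, and without the 2 low libraries the call was lost (0.54, adjusted p = 0.201). The CSF1R ligands were not called, as Csf1 had a log2 fold change of -0.88 (SE 0.49) and Il34, a ligand made by keratinocytes, one of -0.080 (SE 0.45).

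Of the 15 tested genes in the list of other macrophage genes, 7 were above 0 and 8 below in LowAhR+AD against LowAhR. Only 1 was called, lower, where 12.6% of all rows were called. It was Ptprc, the general leukocyte gene for CD45 (-1.17, SE 0.33, adjusted p = 0.0264 from edgeR). Adgre1 was at 45.8 to 55.03 CPM in the LowAhR and 10.5 to 43.4 CPM in the LowAhR+AD libraries (-0.71, SE 0.36, adjusted p = 0.21). Tyrobp and Itgam, which encodes the integrin chain CD11b, had log2 fold changes of -0.31 and -0.41 (SE 0.49 and 0.49).

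Genes of resident dermal macrophages contained changes in both directions. Of 12, 3 were called (12.6% of all rows), as Mgl2 and Sepp1 fell and Stab1 rose. Mgl2, a lectin of dermal macrophages and dendritic cells, was at 58.6, 103, 98.9 and 139 CPM in the LowAhR and 0, 14.2, 19.1 and 28.6 CPM in the LowAhR+AD libraries (-2.69, SE 0.81, adjusted p = 0.0359 from edgeR). Sepp1, a selenium carrier, fell by 1.69 on the log2 scale (SE 0.50, adjusted p = 0.0319). Stab1, a scavenger receptor shared with endothelium, was at 6.90, 2.43, 17.6 and 18.4 CPM and 101.8, 38.9, 47.1 and 49.8 CPM (2.39, SE 0.52, adjusted p = 0.00706). The median of the list was -1.22, lower than that of the members. Without the 2 low libraries 4 of its genes were called lower and 1 higher, where 12% of all rows were called. Of 8 monocyte genes 4 were above 0 and 4 below, with a median of 0.11. Of these genes 2, Chil3 and Vcan, were called, both higher (12.6% of all rows called). In whole skin the cells behind these calls were not identified, so that they are no measure of monocytes. Chil3 had no count in any LowAhR library and 14.2, 45.8, 13.4 and 93.2 CPM in the LowAhR+AD libraries.

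Of the lists around the receptors, each had 1 called gene of 5 to 12, to be read against the 12.6% of all rows called in LowAhR+AD against LowAhR. Fcgrt, which recycles IgG, fell (-0.88, adjusted p = 0.0278 from edgeR) as 1 of 5 Fc receptor genes, and Fcer1g, the signalling chain of Fcgr1, had 0.040 (SE 0.50). In LowAhR+AD+BJ against Cont, Fcer1g (1.63, adjusted p = 0.0308) and the IgG receptor gene Fcgr4 (2.09, adjusted p = 0.0312) rose as Fcgr1 did, where 19.9% of all rows were called, Fcgr4 being named after its values were seen. Among 11 genes of CD14 and Toll-like signalling, Ly96, the lipopolysaccharide-binding partner of TLR4, fell in LowAhR+AD against LowAhR (-1.17, SE 0.33, adjusted p = 0.026), and Tlr4 itself had -1.24 (SE 0.66, adjusted p = 0.228). Of 9 genes of haemoglobin and iron handling, 1 was called, the transferrin receptor Tfrc, which dividing cells of many types use (1.07, adjusted p = 0.0141). Of 9 genes for C1 partners, targets and C1q-binding proteins, 1 was called, C1qbp, a mainly mitochondrial protein (0.90, adjusted p = 0.0285). Of 12 lysosomal genes the protease gene Ctsd rose (0.79, adjusted p = 0.0266).

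Activation genes were also mixed in LowAhR+AD against LowAhR, where 12.6% of all rows were called. Of 8 tested genes of alternative activation, Il4ra (1.07) and Egr2 (1.02) rose, and Retnla, which fat and epithelial cells also express, fell by 4.17 on the log2 scale, from 1195, 1309.8, 825 and 2123 CPM to 8.01, 122, 66.7 and 106 CPM (adjusted p = 0.0382, 0.0486 and 0.00318 from edgeR). Of 10 tested genes of inflammatory activation, Il1b (2.20, adjusted p = 0.0245) and Cxcl2 (4.47, adjusted p = 0.0157) rose. None of these genes is specific to macrophages, and Egr2 was not called without the 2 low libraries (0.57, adjusted p = 0.177).

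Markers of other cell types also differed in the comparison of LowAhR+AD with LowAhR, where edgeR called 12.6% of all rows. All 10 skeletal muscle markers fell, and their summed level was 10979 to 27014 CPM in the LowAhR and 553 to 4531 CPM in the LowAhR+AD libraries. All 10 adipocyte markers had a log2 fold change below 0 and 8 were called lower, from summed levels of 9026 to 13516 CPM to 594 to 4412 CPM. Of 8 fibroblast markers 6 were below 0 and 3 were called lower (sums 29180.3 to 55587 CPM and 4034 to 23315 CPM). All 7 tested T cell markers were below 0 and 2 were called lower (sums 27.6 to 45.0 CPM and 3.51 to 14.8 CPM). Of 7 tested neutrophil markers 6 were above 0 and 3 were called higher. The sum of the neutrophil markers was 24.3 to 128 CPM in the LowAhR+AD and 24.04 to 94.5 CPM in the LowAhR+AD+BJ libraries. Of the neutrophil markers, Fpr1 and Ngp had no count in any LowAhR library, and Cxcr2, the chemokine receptor of neutrophils, was at 0.128 to 1.91 CPM there and at 0.229 to 26.0 CPM in the LowAhR+AD libraries. All 12 hair follicle markers were above 0, with a median of 2.18, and 1, Hoxc13, was called higher (sums 99.96 to 9498 CPM and 6448 to 23189 CPM). Of 8 keratinocyte markers 4 were above 0 and 4 below, with Krt14 (1.99) and Krt5 (1.39) called higher and Col17a1 (-1.47) called lower. The part of these shifts in the values of the macrophage genes was not tested. When library sizes were taken without Rn45s and the muscle, hair follicle and adipocyte markers, edgeR again called 0 members in the first 5 comparisons and 1 in LowAhR+AD+BJ against Cont.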

How the data were processed

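The libraries were made with a QuantSeq 3′ kit and sequenced on a NextSeq 500 with single-end reads of 75 bases. Each deposited file holds the raw counts of 1 library by gene symbol, and the submitters' processing notes list the build mm10 and the tools Bowtie2 and bedtools. The versions, the annotation, the treatment of multiply mapping reads and the use of strand or molecular identifiers are not given in the sources used here, so that reads shared by near-identical or overlapping genes may be split.

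Samples were grouped by their labels into 4 groups of 4, and the 16 files have 23282 rows each (23238 symbols). Counts were analysed with edgeR 4.0.16 in R 4.3.3. Rows were filtered with filterByExpr (minimum count 10, minimum total 15), libraries were scaled with TMM, and 1 quasi-likelihood model was fitted to all libraries and 14854 rows, with 6 comparisons between groups. P-values were adjusted over all rows by the Benjamini-Hochberg method, with a threshold of 0.05. SE is the absolute log2 fold change divided by the square root of F. Log2 CPM used a prior count of 2. A single gene was also compared by an exact 2-sided permutation test (smallest p 0.0286). Alternatives were DESeq2 1.42.0, limma voom 3.58.1, other factors, filters and library sizes, and fits without libraries. The scripts were tested on 1 set of simulated counts, drawn with the spread that edgeR estimated from all 16 libraries. In these counts 100 genes were changed 2-fold and 100 were changed 4-fold between LowAhR+AD and LowAhR. Replicates of each group differed by more than sampling noise (chi-square per degree of freedom 16.5 to 295 for all pairs), so that none was counted as a duplicate.

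The members and the gene lists were chosen with earlier results of these data known. All 10 members and 9 partner genes (Csf1, Il34, Adgre1, Mertk, Fcer1g, Tyrobp, Tlr4, Ptprc and Itgam) were to be named, of each other list at most 4 called genes with the largest change in LowAhR+AD against LowAhR, and the 10 genes most like C1q. Selenop was matched as Sepp1, and C1s, Ly6g and Trbc2 were not matched to a row. Start windows are from RefSeq (GRCm38.p6). Some results on the list of CSF1R ligands and transcription factors are not reported here.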

Additional observations from a re-analysis of the deposited data

Results flagged for a closer look

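Of 40 groups of 4 libraries (10 members in 4 groups), 3 had a library whose gap to its nearest neighbour, divided by the range of the group, was above the 95% critical value of Dixon's test. Chance gives such a gap in about 1 of 20 groups. For Lyz2 in LowAhR+AD replicate 1 the ratio was 0.884, with no count there and 43.7 CPM in the next library. For C1qa in Cont replicate 1 it was 0.89 (119.5 against 268 CPM) and for Mrc1 in the same library 0.838 (87.0 against 176 CPM). These are the 2 libraries left out together in the counts of calls.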

How the results depend on the processing

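Of the log2 fold changes of single members under alternative settings, 1014 kept their direction and their side of the threshold, 20 passed it newly, 9 no longer passed it and 25 turned their sign. Of the counts of members called, 89 stayed equal or within 1.5 times and 19 did not. The main count was 0 in every comparison but LowAhR+AD+BJ against Cont, and there only a count of 0 was taken as unchanged. In LowAhR against Cont, the fit of 8 libraries gave 1 call (C1qc). In LowAhR+AD against LowAhR, DESeq2, limma voom, the filter of at least 10 counts in every library and the fit without Cont replicate 1 and LowAhR+AD replicate 1 (chosen after seeing the data) each gave 1 call, Cd163 (-1.65, adjusted p = 0.0344 from edgeR with that filter). In LowAhR+AD against Cont, leaving out 1 library gave 0 to 2 calls, and leaving out both gave 2. In LowAhR+AD+BJ against LowAhR, the 8 libraries alone gave 1 call, Cd163 (-1.07, adjusted p = 0.0393 from edgeR), as did leaving out both. In LowAhR+AD+BJ against Cont, there were 0 calls with no normalization factors or with limma voom, 2 with DESeq2 (Cd14 and Fcgr1) and 2 with 8 libraries (Cd68 and C1qc), 0 to 1 without 1 library and 3 without both. Without both libraries, edgeR called 12% of all rows in each DNCB group against LowAhR. It called 20.5% in LowAhR+AD against Cont and 21.8% in LowAhR+AD+BJ against Cont. For most other settings the share of all rows called is not given here, so that their calls of members have no background beside them. The cause of these changes in calls was not tested.

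Some values turned their sign. Without 1 library in turn, the log2 fold changes had these ranges. In LowAhR against Cont, Mrc1 had -0.11 to 0.23 (-0.11 without both). In LowAhR+AD against LowAhR, Cd68 had -0.38 to 0.22 (0.23 without both). In LowAhR+AD against Cont, C1qa had -0.27 to 0.27, with -0.021 without normalization factors and -0.029 in limma voom, where Lyz2 had -1.65 and C1qb -0.037. In LowAhR+AD+BJ against LowAhR+AD, Csf1r had -0.21 to 0.67 (-0.21 without both). In LowAhR+AD+BJ against LowAhR, Mrc1 had -0.22 to 0.33, Cd14 -0.19 to 0.37, C1qa -0.096 to 0.24, C1qb -0.26 to 0.13 and C1qc -0.45 to 0.13, and in LowAhR+AD+BJ against Cont, Mrc1 had -0.12 to 0.43.

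The groups share replicate numbers. Same-numbered libraries deviated from their group means with correlations of -0.055 to 0.167 (24 pairs), and differently numbered ones with -0.146 to 0.140 (72 pairs), so that the numbers do not pair the samples. With the replicate number as a block, the counts of members called were 0 in 5 comparisons and 1 in LowAhR+AD+BJ against Cont (Fcgr1, 2.16, adjusted p = 0.043 from edgeR), Cd163 in LowAhR+AD against LowAhR had -1.81 (adjusted p = 0.0602), and C1qb in LowAhR+AD+BJ against LowAhR turned to 0.040. The filter of at least 10 counts in every library removed Lyz2 and Fcgr1. Depth limits the members with few reads, such as Fcgr1 with 6 to 100 in the Cont libraries.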
